A study of Homo sapiens with 6 samples.

Results

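The splicing factor genes examined here were the 63 protein-coding genes on chromosomes 1 to 22 and X whose symbols place them in the SRSF (12 genes), HNRNP (27), SNRP (12), SF3A and SF3B (9, called SF3 below) or U2AF (3) families, out of 19970 protein-coding genes on those chromosomes in GENCODE release 44. They were chosen by symbol. H3K27ac, histone H3 acetylated at lysine 27, had been profiled by CUT&Tag, in which an antibody leads a transposase to the marked chromatin, in 2 human acute myeloid leukemia (AML) cell lines: Kasumi-1, known for a RUNX1::RUNX1T1 fusion, and MV4-11, known for a KMT2A fusion and a FLT3 internal duplication. Each line had 1 NC library (a control that the labels call untreated and the study's methods describe as a control hairpin) and 1 sh-ANP32B library, from cells with a short hairpin RNA against ANP32B, a histone-binding member of the ANP32 family. The peaks had been called on merged replicates, so each group gave 1 peak list with no spread between replicates, and every difference below is a difference between single lists with no test. The labels do not give which hairpin, dose or time was used, and 2 IgG libraries, 1 for each line, were not analysed here.

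Pre-mRNA splicing is carried out by the spliceosome, in which small nuclear ribonucleoproteins (snRNPs) recognise the ends of an intron and its branch site and then cut and join the transcript. The SNRP genes encode proteins of these snRNPs, the SF3A and SF3B genes encode the parts of the U2 snRNP that hold the branch site, and the U2AF proteins bind the end of the intron before U2 arrives. SR proteins (SRSF genes) mostly promote the use of nearby splice sites, and hnRNPs (HNRNP genes) coat the new transcript and often oppose it. Most of these genes are active in nearly all dividing cells, and SF3B1, SRSF2 and U2AF1 are among the genes most often mutated in myeloid neoplasms. H3K27ac marks the nucleosomes that flank active starts, so a peak at a start is commonly read as a sign of an active promoter.

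Promoter sequences are shown for SF3B1 and U2AF1, of the genes mutated in myeloid neoplasms, and for the 5 splicing factor genes whose promoter peak was present in MV4-11 NC and absent in MV4-11 sh-ANP32B. Each is the RefSeq sequence of build GRCh38.p14, written along the gene from 250 bases before its start to 30 bases after it, and in all 7 the RefSeq start and the GENCODE start were the same base. Capitals mark matches on either strand to motifs common in promoters, and neighbouring or overlapping matches run together. The GC box, which binds SP1, was searched for as GGGCGG. The CCAAT box, which binds NF-Y, was searched for by the letters of its name. The core bound by ETS factors was searched for as CCGGAAG, and the core of the NRF1 site as GCGCATGCG. The E-box, which binds MYC with MAX, was searched for as CACGTG. The core of the TATA box was searched for as TATAAA. SF3B1 was taken from chr2:197434999-197435278 (minus strand) and U2AF1 from chr21:43107541-43107820 (minus strand).
SF3B1: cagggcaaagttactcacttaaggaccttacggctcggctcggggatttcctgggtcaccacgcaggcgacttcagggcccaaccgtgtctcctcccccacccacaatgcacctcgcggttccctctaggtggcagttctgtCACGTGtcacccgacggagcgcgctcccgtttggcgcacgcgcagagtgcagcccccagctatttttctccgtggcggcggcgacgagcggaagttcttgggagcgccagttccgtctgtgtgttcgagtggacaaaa
U2AF1: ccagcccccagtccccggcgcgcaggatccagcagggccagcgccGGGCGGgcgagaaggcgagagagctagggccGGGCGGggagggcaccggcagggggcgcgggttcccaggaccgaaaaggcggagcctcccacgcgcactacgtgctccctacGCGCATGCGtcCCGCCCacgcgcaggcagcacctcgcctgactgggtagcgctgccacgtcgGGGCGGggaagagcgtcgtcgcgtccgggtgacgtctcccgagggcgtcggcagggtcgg

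The 5 promoters without a peak in MV4-11 sh-ANP32B were those of SRSF3 at chr6:36594112-36594391 (plus strand), SNRPC at chr6:34757255-34757534 (plus strand), HNRNPAB at chr5:178204283-178204562 (plus strand), SF3B5 at chr6:144095544-144095823 (minus strand) and SNRPF at chr12:95858702-95858981 (plus strand).
SRSF3: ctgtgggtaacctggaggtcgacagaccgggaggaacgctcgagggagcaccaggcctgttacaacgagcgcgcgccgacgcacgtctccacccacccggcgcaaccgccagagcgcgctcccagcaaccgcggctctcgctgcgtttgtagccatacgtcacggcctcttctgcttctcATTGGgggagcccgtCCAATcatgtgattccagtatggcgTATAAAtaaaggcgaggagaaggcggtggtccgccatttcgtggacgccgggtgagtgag
SNRPC: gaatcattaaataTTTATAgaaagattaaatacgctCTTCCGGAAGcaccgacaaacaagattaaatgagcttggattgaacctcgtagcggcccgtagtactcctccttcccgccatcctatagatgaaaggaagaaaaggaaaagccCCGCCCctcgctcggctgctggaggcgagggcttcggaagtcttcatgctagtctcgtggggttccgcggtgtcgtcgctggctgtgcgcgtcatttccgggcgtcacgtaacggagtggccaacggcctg
HNRNPAB: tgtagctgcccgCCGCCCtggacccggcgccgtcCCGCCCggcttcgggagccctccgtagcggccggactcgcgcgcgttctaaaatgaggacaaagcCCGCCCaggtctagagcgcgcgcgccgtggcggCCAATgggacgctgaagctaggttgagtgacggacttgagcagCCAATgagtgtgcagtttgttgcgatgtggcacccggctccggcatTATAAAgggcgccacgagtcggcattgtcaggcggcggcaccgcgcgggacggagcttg
SF3B5: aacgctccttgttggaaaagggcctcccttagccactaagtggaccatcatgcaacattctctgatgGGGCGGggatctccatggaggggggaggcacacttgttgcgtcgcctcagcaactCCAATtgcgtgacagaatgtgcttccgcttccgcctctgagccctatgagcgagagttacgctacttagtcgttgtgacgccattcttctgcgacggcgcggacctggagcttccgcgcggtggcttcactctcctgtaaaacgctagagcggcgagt
SNRPF: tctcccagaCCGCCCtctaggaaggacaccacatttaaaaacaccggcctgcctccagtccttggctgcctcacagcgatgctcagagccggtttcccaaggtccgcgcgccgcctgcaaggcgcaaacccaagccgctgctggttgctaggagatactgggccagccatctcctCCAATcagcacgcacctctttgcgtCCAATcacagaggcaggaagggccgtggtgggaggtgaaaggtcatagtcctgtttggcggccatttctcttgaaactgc

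SRSF3, HNRNPAB, SF3B5 and SNRPF each held a CCAAT box within 250 bases before the start, and SRSF3 and HNRNPAB also held a TATA core about 30 bases before it, at positions -30 and -29. SNRPC held 2 ETS cores on opposite strands that overlapped, at positions -214 and -211, and a GC box at -101. U2AF1 held 4 GC boxes and 1 NRF1 core, and SF3B1 held 1 E-box at -108. Over the 57 splicing factor genes with a RefSeq promoter (250 bases before to 50 after the start), 42.1% held a CCAAT box, against 36.6% of 15315 protein-coding promoters. The ETS core stood in 18 of the 57 (31.6%, against 14.7%), the NRF1 core in 5 (8.77%, against 2.80%), the GC box in 57.9% (against 61.8%) and the TATA core in 12.3% (against 9.42%). The E-box stood in 10.5% (against 8.85%), and a YY1 core (ATGGCGGC) in 7.02% (against 4.84%). These are matches of letters, and no binding of any factor was measured. The RefSeq promoter set used here had no entry for HNRNPA1, HNRNPA1L3, HNRNPCL3, SF3B3, SNRPD1 and SRSF2, so the motif shares leave these genes out.

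On chromosomes 1 to 22 and X, the 4 lists held between 22112 and 24491 peaks, which covered 32.7 Mb in NC and 33.6 Mb after the knockdown in Kasumi-1, against 27.9 Mb and 23 Mb in MV4-11. The lists gave no read totals, heights or q-values, so the depth behind a peak is unknown and an absent peak means only that none was called. Each promoter was taken as the canonical start with 2500 bases on either side. In that window the myeloid markers SPI1, FLI1, LYL1, RUNX1 and MYB had bases under peaks in all 4 libraries, while MPO had none in any. CEBPA had 3148 and 3103 bases in the libraries labelled Kasumi-1 and 1722 and 0 in those labelled MV4-11, and CD33 had 1464 and 1411 against 0 and 0. The genes CD3E, PAX5, GATA1, ALB, EPCAM, KRT5 and SFTPC, which mark other cells, had 0 bases in all 4. The markers chosen to tell the lines apart did not follow the labels. KIT, POU4F1 and RUNX1T1, which mark Kasumi-1, had 0 bases in all 4 libraries. HOXA9, which marks lines with a KMT2A fusion, had 4335 and 4707 bases in the libraries labelled Kasumi-1 against 769 and 659 in those labelled MV4-11. HOXA10, chosen for the same purpose, had 5001 and 5001 against 2648 and 1638. MEIS1, also chosen for MV4-11, was similar in both, with 3103 and 3264 against 3337 and 3123. LYZ and PTPRC had peaks only in the libraries labelled MV4-11. The line names below are those of the labels. Where 4 values are given in a row, they stand in the order of NC and then sh-ANP32B for Kasumi-1, followed by NC and then sh-ANP32B for MV4-11.

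Most splicing factor promoters carried H3K27ac in every library. A peak overlapped the window of 55 of the 63 genes (87.3%) in Kasumi-1 NC, where 47.8% of all protein-coding genes had one, and of the same 55 in Kasumi-1 sh-ANP32B (all genes 45.4%). In MV4-11 NC it overlapped 50 (79.4%, all genes 35.8%) and in MV4-11 sh-ANP32B 45 (71.4%, all genes 28.7%). The genes fell into only 4 patterns: 45 had a peak in all 4 libraries (71.4%, all genes 26%), 5 in all but MV4-11 sh-ANP32B, 5 in both Kasumi-1 libraries alone and 8 in none (12.7%, all genes 50%). Each of these genes with a peak in MV4-11 sh-ANP32B thus also had one in the other 3 libraries. The peaks were also long. Among genes with a peak, the median number of bases of the 5001-base window under peaks was 2026, 2118, 1503 and 1165 for the splicing factor genes, against 1500, 1522, 1046 and 911 for all genes in the same order.

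**Figure D1:**
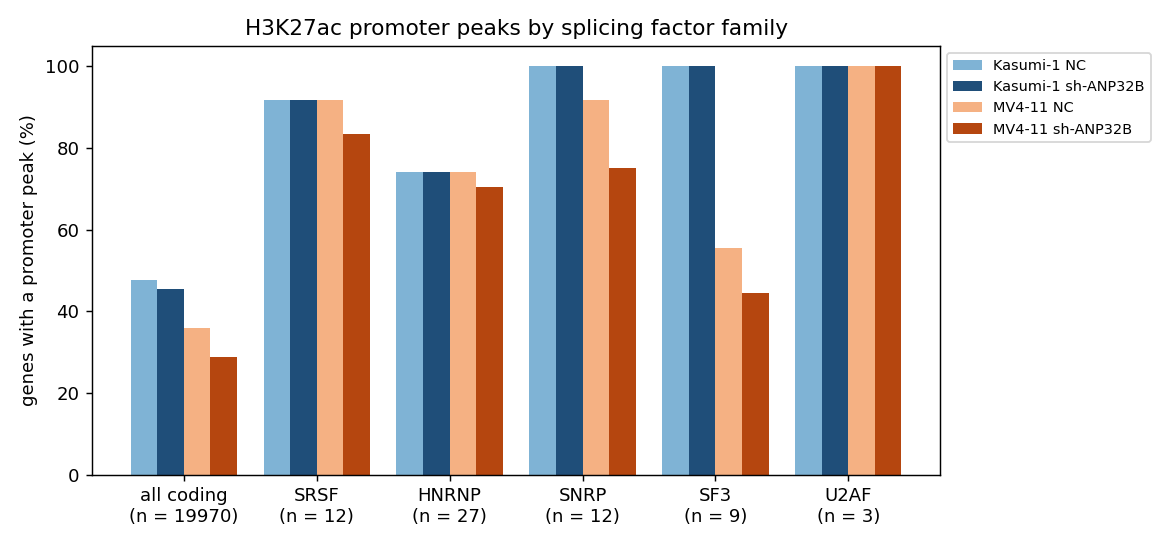
Share of genes with an H3K27ac peak within 2500 bases of the canonical start (vertical axis, percent of genes), by family and for all 19970 protein-coding genes, with 1 bar for each library. SF3 genes had a peak in 9 of 9 cases in each Kasumi-1 library, 5 of 9 in MV4-11 NC and 4 of 9 after its knockdown, and the 3 U2AF genes had one in every library.

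In 54 of the 55 genes with a peak in Kasumi-1 NC, the start itself lay under a peak (all genes 86.7%), as it did in 51 of 55 in Kasumi-1 sh-ANP32B (77.8%), 45 of 50 in MV4-11 NC (66.4%) and 35 of 45 in MV4-11 sh-ANP32B (57.5%). The exception in Kasumi-1 NC was SRSF8, whose peak of 1210 bases began 21 bases after the start. The windows were richer in CpG than most: the median ratio of observed to expected CpG was 0.652, against 0.475 over all genes, at a similar median GC content (48.3% against 49.5%). Another protein-coding start lay within the window of 19 of the 63 genes (30.2%, all genes 16.4%), 12 of them head to head or overlapping head to head with the splicing factor gene's own promoter, such as CBX5 beside HNRNPA1, CBX3 beside HNRNPA2B1, MFSD11 beside SRSF2 and COG4 beside SF3B3. The bases under such a peak cannot be divided between the genes that share it.

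The first comparison concerned the NC libraries, which set the lines side by side without the knockdown. The 5 genes with a peak in Kasumi-1 NC and none in MV4-11 NC (7.94% of the 63, all genes 13.3%) were SF3A1, SF3A3, SF3B2, SF3B6 and SNRPE, and 4 of these belong to the SF3 family. No splicing factor gene had the reverse pattern (all genes 1.4%). Of the 55 genes with a peak in either library, 48 had more bases under peaks in Kasumi-1 NC (87.3%, all genes 83.9%). The difference passed 1.5-fold toward Kasumi-1 in 19 of the 50 genes with a peak in both (38.0%, all genes 49.7%) and toward MV4-11 in 1 (all genes 4.3%), which was SRSF11. Thus the wider coverage in Kasumi-1 was a feature of most promoters and was not particular to these families.

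After the knockdown, the lists of the lines moved in different directions. In Kasumi-1, 0 of 55 splicing factor genes lost their peak (all genes 6.79%) and 0 of 8 gained one (1.61%). In MV4-11, 5 of 50 lost theirs (all genes 24.4%) and 0 of 13 gained one (2.46%). These counts depended on the length of the peaks considered: when only peaks of at least 1000 bases in one library were looked for in the other, 2 genes lost theirs in MV4-11, and among the 10000 longest peaks of each list 5 lost and 5 gained one, so that 37 genes had a peak in each MV4-11 library. The number of bases under peaks was higher in sh-ANP32B in 41 of 55 genes in Kasumi-1 (74.5%, all genes 48.9%) and lower in 14 (25.5%, all genes 49.9%). In MV4-11 it was lower in 41 of 50 (82.0%, all genes 78.1%) and higher in 9 (18.0%, all genes 21.5%). The Kasumi-1 increases were small, and with 1000 bases on either side of the start only 27 genes had more bases and the median difference was 0 in Kasumi-1 and -115 in MV4-11. In the full window, the median difference of sh-ANP32B minus NC among genes with a peak in both libraries was 52 bases in Kasumi-1 (all genes 5) and -312 bases in MV4-11 (all genes -211), or ratios of 1.03 and 0.806 (all genes 1.00 and 0.828).

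Past 1.5-fold, 1 of 55 genes had fewer bases in Kasumi-1 sh-ANP32B (SF3B2, all genes 8.64%) and 1 had more (SRSF11, all genes 3.43%). In MV4-11, 11 of 45 had fewer (24.4%, all genes 29.9%) and 2 had more (U2AF1 and SNRPA1, 4.44%, all genes 4.23%). The splicing factor genes therefore stood close to the background in MV4-11 for changes in length, and below it for the loss of the whole peak. In all, 33 of the 63 genes had more bases in Kasumi-1 and fewer in MV4-11 after the knockdown. That share was 52.4%, against 14.8% of all genes, 50% of which had no peak in any library. Fewer bases in both lines were found in 8 (12.7%, all genes 13.1%) and more in both in 7 (11.1%, all genes 4.05%). Another 2 had fewer in Kasumi-1 and more in MV4-11 (3.17%, all genes 3.4%). The whole MV4-11 list covered fewer bases after the knockdown and the whole Kasumi-1 list slightly more, and the part of this shift in the splicing factor genes' values was not tested.

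**Figure D2:**
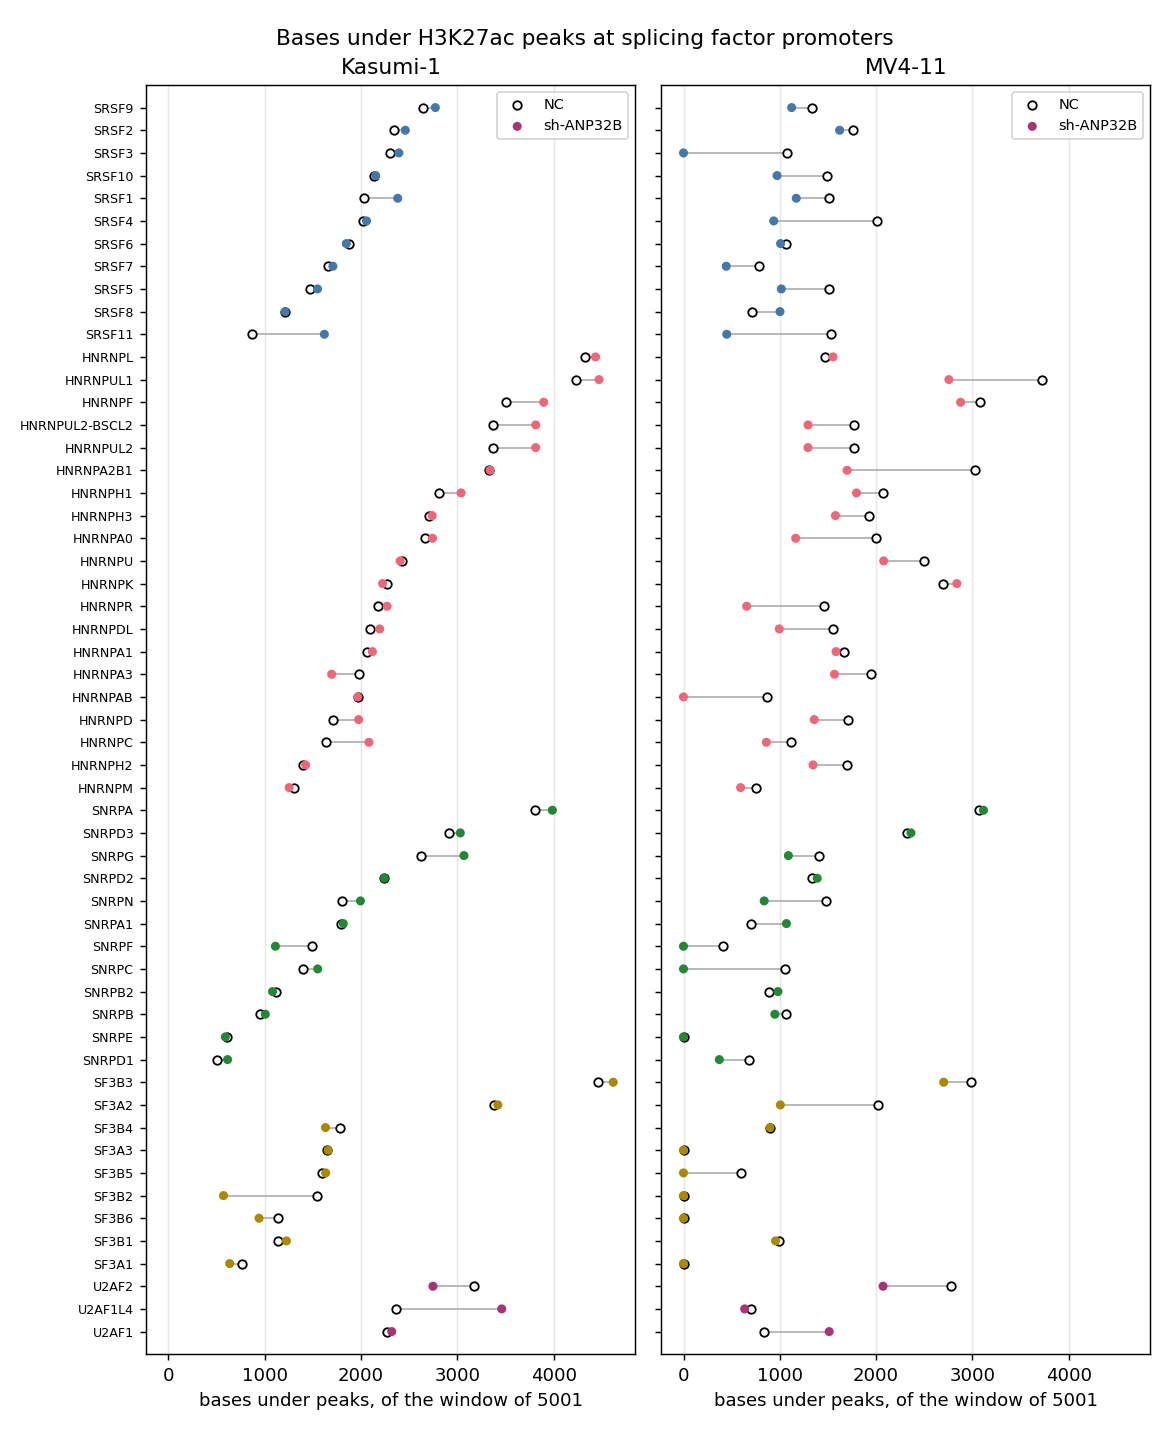
Bases of the 5001-base promoter window under H3K27ac peaks (horizontal axis) for the 55 splicing factor genes with a peak in any library, in Kasumi-1 (left) and MV4-11 (right), with open circles for NC, filled circles for sh-ANP32B and colors for the families. Filled circles lie to the right of open ones for 41 genes in Kasumi-1 and to the left for 41 genes in MV4-11, and 5 filled circles reach 0 in MV4-11 where the open circle does not.

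The SR protein genes kept their coverage in Kasumi-1 and had less of it in MV4-11, as most genes did there. In Kasumi-1, 10 of 11 had more bases in sh-ANP32B (90.9%, all genes 48.9%), SRSF6 being the exception with 1874 in NC and 1847 in sh-ANP32B. In MV4-11, 10 of 11 had fewer (90.9%, all genes 78.1%). SRSF3, the smallest SR protein and also an adaptor for RNA export, had 2306 bases under peaks in Kasumi-1 NC and 2393 after the knockdown, but 1070 in MV4-11 NC and 0 after it. Its MV4-11 NC peak lay at chr6:36593671-36594740 on hg38, over the printed promoter, and the nearest peak in MV4-11 sh-ANP32B was 38734 bases from the start. SRSF3 was thus the SR protein gene that went from a peak over its start to no peak in the window.

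SRSF11, an SR-related protein found with U2AF2, was the outlying gene of the family in both lines. It had 864 bases in Kasumi-1 NC and 1619 after the knockdown, but 1529 in MV4-11 NC and 449 after it, or ratios of 1.87 and 0.294. The edge that moved most was the upstream one: the peak began 77 bases before the start in Kasumi-1 NC and 754 bases before it in Kasumi-1 sh-ANP32B, and it went from 606 bases before the start in MV4-11 NC to 63 bases after it in MV4-11 sh-ANP32B. SRSF4, whose protein has a long arginine-serine domain, had 2018, 2057, 2008 and 937 bases in the same order. SRSF7, another export adaptor, had 1659, 1708, 783 and 444, and SRSF10, a factor linked to splicing during heat shock, had 2137, 2152, 1493 and 972. These 4 genes were the SR protein genes with fewer bases past 1.5-fold in MV4-11, of 10 with a peak in both libraries (40.0%, all genes 29.9%).

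SRSF1, the long-studied founding SR protein, had 2026, 2381, 1515 and 1171 bases. SRSF8 ran against the family in MV4-11, with 1210, 1211, 714 and 1002 bases in the same order. Its MV4-11 sh-ANP32B peak reached from 42 bases before the start to 959 bases after it, where the NC peak had begun 263 bases after the start. Among SR protein genes it was the 1 with more bases in MV4-11 sh-ANP32B than in NC.

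The hnRNP genes had long peaks, and nearly all of those with a peak had it in every library. All 20 genes of the family with a peak in Kasumi-1 NC also had one in MV4-11 NC, and HNRNPAB was the 1 gene that lost it in MV4-11 sh-ANP32B. HNRNPAB, which binds RNA and also single-stranded DNA, had 1967 bases in Kasumi-1 NC and 1966 after the knockdown, but 865 in MV4-11 NC and 0 after it. In MV4-11 NC those 865 bases were already split between a peak of 359 bases over the start and a peak of 506 bases that began 601 bases after it, whereas Kasumi-1 had 1 unbroken peak. The nearest MV4-11 sh-ANP32B peak lay 10342 bases from the start.

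Of the 19 hnRNP genes with a peak in both MV4-11 libraries, 17 had fewer bases in sh-ANP32B (89.5%, all genes 75.6%). The family median was -353 bases (all genes -211), and 4 passed 1.5-fold (21.1%, all genes 29.9%), a share below the background. HNRNPR, which binds RNA of many transcripts, had 2178, 2271, 1454 and 656 bases. HNRNPA2B1, a reader of N6-methyladenosine and of microRNA sorting motifs, had 3331, 3340, 3027 and 1699. Its 1 MV4-11 NC peak gave way to 3 peaks in MV4-11 sh-ANP32B, of 623, 373 and 703 bases, with the start in a gap between them, and CBX3 starts in the same window at position -999 from the start. HNRNPA0 had 2664, 2743, 1995 and 1165 bases and HNRNPDL, a relative of HNRNPD, had 2088, 2194, 1554 and 995. In these 4 genes the MV4-11 sh-ANP32B value was the lowest of the 4 libraries.

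HNRNPUL1 had the most bases of the family over the 4 libraries, with 4232, 4472, 3728 and 2756. HNRNPL, which binds CA repeats, differed more between the lines than with the knockdown, with 4322 and 4436 bases in Kasumi-1 against 1471 and 1553 in MV4-11. It and HNRNPK, which binds cytosine-rich RNA, were the 2 hnRNP genes with more bases in MV4-11 sh-ANP32B. At HNRNPL, however, the MV4-11 peak over the start was shorter after the knockdown (1359 and 1159 bases). A separate peak at the upstream edge of the window held 112 bases of it in NC and 394 in sh-ANP32B. HNRNPC, which binds uridine tracts, had 1638, 2082, 1120 and 860, so that it stood among the largest increases in Kasumi-1 while it had fewer bases in MV4-11. HNRNPA3 had fewer in both lines, with 1984 and 1695 in Kasumi-1 against 1946 and 1568 in MV4-11. In Kasumi-1 its peak over the start was longer after the knockdown (1625 and 1695 bases), and a separate downstream peak of 359 bases was absent. HNRNPUL2 and the readthrough gene HNRNPUL2-BSCL2 start 73 bases apart and had the same values (3368, 3814, 1773 and 1293), so they are 1 promoter counted as 2 genes.

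**Figure D3:**
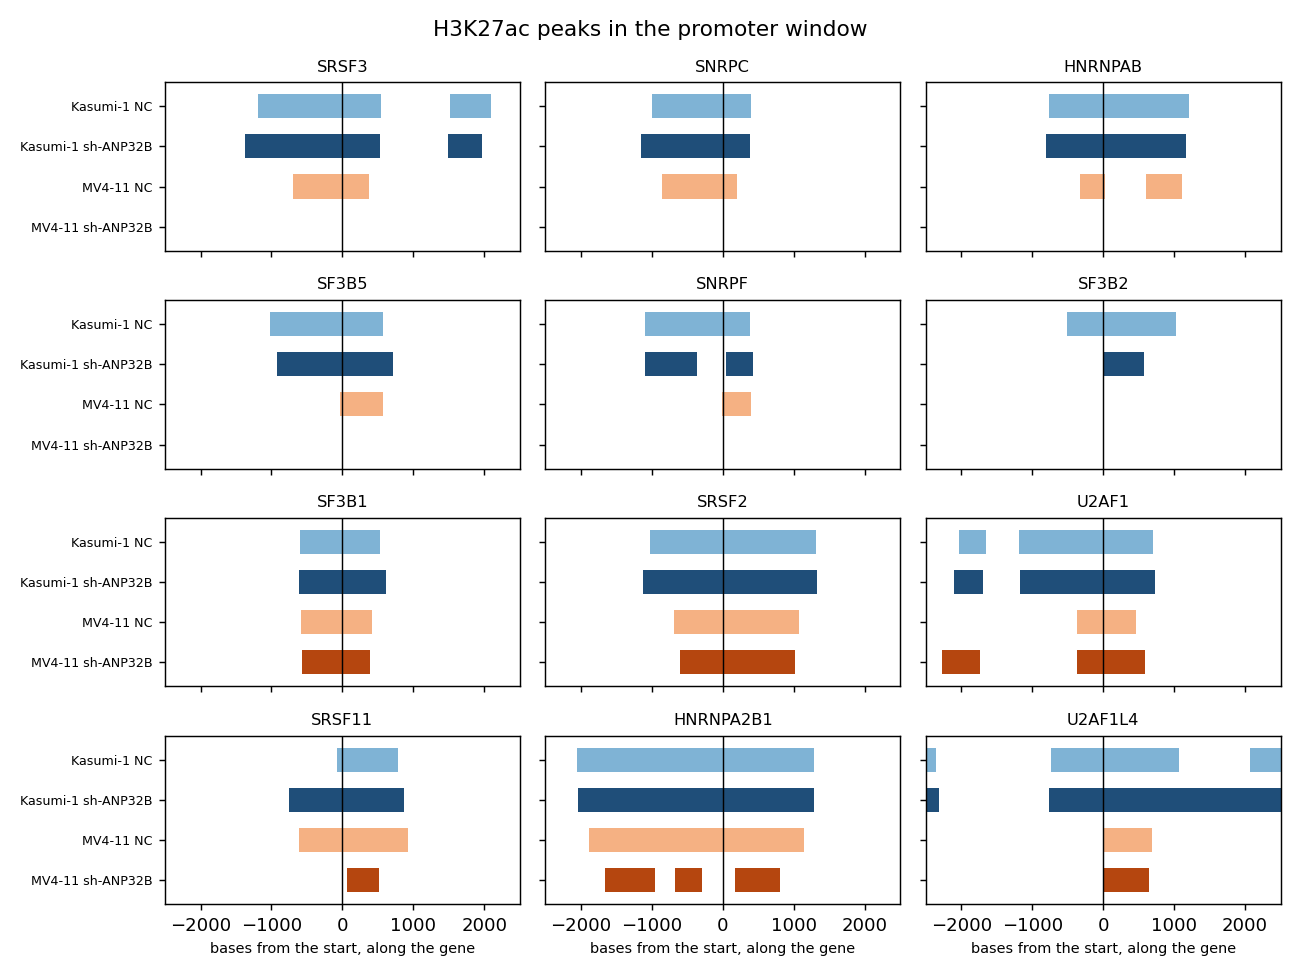
H3K27ac peaks (bars) within 2500 bases of the canonical start (vertical line) of 12 splicing factor genes, by library, with the horizontal axis in bases along the direction of transcription. SRSF3, SNRPC, HNRNPAB, SF3B5 and SNRPF have a bar in MV4-11 NC and none in MV4-11 sh-ANP32B, SF3B2 has bars in Kasumi-1 alone, and HNRNPA2B1 has 1 bar in MV4-11 NC and 3 after its knockdown.

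Genes of the snRNP core behaved less evenly. All 12 SNRP genes had a peak in both Kasumi-1 libraries (all genes 47.8% and 45.4%), 11 in MV4-11 NC (35.8%) and 9 after its knockdown (28.7%). SNRPC, a protein of the U1 snRNP that helps it hold the start of the intron, had 1401 bases in Kasumi-1 NC and 1550 after the knockdown, but 1051 in MV4-11 NC and 0 after it. SNRPF, a member of the ring of Sm proteins around the small nuclear RNA, had 1492, 1111, 406 and 0 bases. Coverage at SNRPF was lower after the knockdown in Kasumi-1 as well: the NC peak of 1492 bases was replaced by peaks of 738 and 373 bases with the start between them. SNRPE, another Sm protein, had 610 and 591 bases in Kasumi-1 and 0 in both MV4-11 libraries.

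The 9 SNRP genes with a peak in both MV4-11 libraries had a median difference of 44 bases (all genes -211), where the SRSF genes had -341.5 and the HNRNP genes -353. Of the 9, 5 had more bases in sh-ANP32B (55.6%, all genes 23.9%). With the lost peaks of SNRPC and SNRPF counted as 0 bases, 6 of 11 SNRP genes had fewer bases (54.5%, all genes 78.1%). The median was then -115 (all genes -323), against -344 for the SRSF and -365.5 for the HNRNP genes. The direction of the SNRP median thus rested on leaving SNRPC and SNRPF out. SNRPA1, a protein of the U2 snRNP, had 1790, 1816, 704 and 1069 bases, a ratio of 1.52 in MV4-11. SNRPB2, its partner in the U2 snRNP, had 1113, 1081, 888 and 981. SNRPA, the U1 protein related to it, had the most bases of the family with 3811, 3987, 3068 and 3115, in a window that also holds the start of ACTMAP. SNRPD2 and SNRPD3 had 58 and 44 more bases in MV4-11 sh-ANP32B than in NC, so that in these 3 genes the MV4-11 libraries differed by at most 58 bases.

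SNRPD1, SNRPG, SNRPB and SNRPN had fewer bases in MV4-11 sh-ANP32B. SNRPD1 had the smallest peaks of the family in Kasumi-1 NC, with 507, 614, 684 and 372 bases, and passed 1.5-fold in MV4-11 at a ratio of 0.544. SNRPN, an imprinted gene that shares its canonical start with SNURF, had 1806, 1994, 1484 and 838. The Sm proteins, which assemble into 1 ring, were thus found with no peak (SNRPE), a lost peak (SNRPF), fewer bases (SNRPB, SNRPD1, SNRPG and SNRPN) and more bases (SNRPD2 and SNRPD3) in MV4-11 sh-ANP32B. These are bases in the window. At SNRPG the peak over the start had 1036 bases in MV4-11 NC and 1089 in sh-ANP32B, where a separate downstream peak of 366 bases was absent. The MV4-11 peaks of SNRPD3 ended 92 bases before the start in NC and 139 before it in sh-ANP32B.

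The SF3 genes differed between the lines in the presence of a peak. All 9 had a peak in both Kasumi-1 libraries (all genes 47.8% and 45.4%), 5 had one in MV4-11 NC (35.8%) and 4 after its knockdown (28.7%). SF3A3 had 1650 and 1658 bases in the Kasumi-1 libraries, SF3B2 had 1542 and 572, SF3B6 had 1140 and 941 and SF3A1 had 766 and 636, and each of these had 0 in both MV4-11 libraries. The nearest MV4-11 NC peak lay 6782 bases from the start of SF3A3, 15783 from SF3A1, 49429 from SF3B2 and 149210 from SF3B6. SF3B5, a small subunit of SF3B, had 1595, 1633, 601 and 0 bases, and the nearest MV4-11 sh-ANP32B peak was 251668 bases away.

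SF3B2 was the splicing factor gene past 1.5-fold toward NC in Kasumi-1, at a ratio of 0.371. Its NC peak reached from 516 bases before the start to 1025 after it, and its sh-ANP32B peak from 5 to 576 bases after the start. SF3A1 and SF3B6, at ratios of 0.830 and 0.825, were also among the 5 largest decreases in Kasumi-1. SF3A2 had 3382, 3421, 2023 and 1006 bases, in a window that also holds the start of PLEKHJ1 at position -495. It was the 1 SF3 gene past 1.5-fold in MV4-11 among those with a peak in both libraries. SF3B3, whose window also holds the start of COG4, had the most bases of the family with 4459, 4619, 2985 and 2702, and SF3B4 had 898 bases in MV4-11 sh-ANP32B against 903 in NC. Coverage of the SF3 genes in MV4-11 thus ran from 0 to 2985 bases in NC.

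Of the 3 genes recurrently mutated in myeloid neoplasms, SF3B1, which clamps the branch site, had 1134, 1225, 994 and 956 bases. SRSF2, an SR protein that binds exonic enhancers, had 2342, 2460, 1761 and 1621, with the start of MFSD11 in the same window at position -788. At both genes the peak covered the start in all 4 libraries, the 2 Kasumi-1 values were above the 2 MV4-11 values, and the ratios of sh-ANP32B to NC ranged from 0.920 to 1.08. Mutations were not examined, since the lists hold positions only.

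U2AF1, which contacts the AG at the end of the intron, had 2272, 2319, 837 and 1513 bases, and its MV4-11 ratio of 1.81 was the highest among the splicing factor genes. Its window was not unique, however. Of all 50-base words in its window 94.1% also occurred elsewhere in the genome, because hg38 carries a near copy of the U2AF1 locus on chromosome 21, whose window at chr21:6496748-6501748 was 99.9% identical. The copy had 2183, 1942, 1145 and 303 bases in the same order, so that in MV4-11 the bases were higher after the knockdown at U2AF1 and lower at its copy. Most reads from these places cannot be told apart by their sequence, and how the aligner divided them is not given in the sources used here.

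U2AF2, which binds the polypyrimidine tract, had fewer bases in both lines, with 3169 and 2747 in Kasumi-1 against 2779 and 2072 in MV4-11. In Kasumi-1 its peak over the start had 2789 and 2747 bases, and a separate downstream peak with 380 bases in the window was absent in sh-ANP32B. U2AF1L4, a paralog of U2AF1, had 2367, 3461, 697 and 635 bases. In Kasumi-1 the NC list had separate peaks over the start and downstream of it, which were 1 peak of 5735 bases in sh-ANP32B. The increase of 1094 bases thus lay mostly in the former gap between these peaks.

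**Figure D4:**
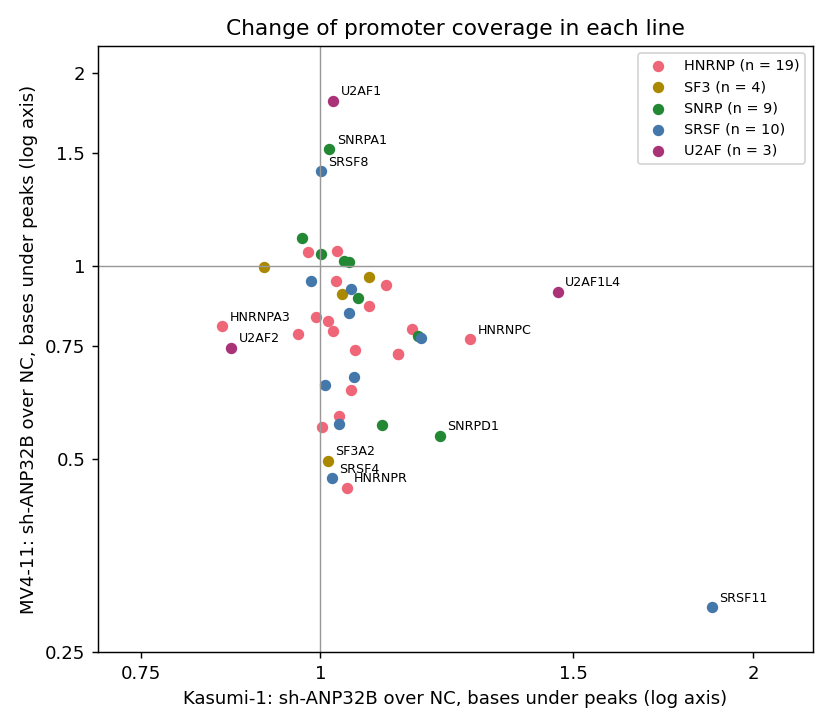
Ratio of bases under peaks in sh-ANP32B to NC in Kasumi-1 (horizontal, log axis) and MV4-11 (vertical, log axis) for the 45 splicing factor genes with a peak in all 4 libraries, by family. Most points lie just right of 1 and below 1, SRSF11 lies at 1.87 and 0.294, and U2AF1, whose window is nearly repeated elsewhere in the genome, lies at 1.02 and 1.81.

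Peaks were shorter at both ends in MV4-11 sh-ANP32B, as they were over all genes. Among the 34 genes whose start lay under a peak in both MV4-11 libraries, the edge upstream of the start moved inward in 24 and the downstream edge in 25 (2070 and 2054 of 3010 for all genes), with median changes of -113.5 and -56 bases over all 34 (all genes -49 and -62). In Kasumi-1 the edges moved outward by medians of 39 bases upstream and 12 bases downstream over 51 genes (all genes 8 and 6). The start ceased to lie under a peak in 11 of 45 genes in MV4-11 (24.4%, all genes 36.7%) and in 3 of 54 in Kasumi-1 (5.56%, all genes 17.1%). The 3 Kasumi-1 genes were SF3A1, SF3B2 and SNRPF, all of them with fewer bases in sh-ANP32B.

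The 8 genes without a peak in any library were HNRNPA1L2, HNRNPA1L3, HNRNPCL1, HNRNPCL2, HNRNPCL3, HNRNPCL4, HNRNPLL and SRSF12. Those named after HNRNPA1 and HNRNPC are known as copies of these genes, while HNRNPLL, a relative of HNRNPL known from activated lymphocytes, and SRSF12 are genes in their own right. The windows of all 8 had a median observed to expected CpG ratio of 0.270, against 0.687 in the 45 genes with a peak in all 4 libraries. That median reflects the copies, whose ratios ran from 0.152 to 0.297. HNRNPLL had 0.769 and SRSF12 had 0.634, so these 2 windows were not poor in CpG. At HNRNPCL3 and HNRNPCL4, 93.9% and 96.5% of the 50-base words also occurred elsewhere in the genome, and whether reads could be placed there was not tested. Peaks inside the gene but outside the promoter window were found at 9, 11, 10 and 11 of the 63 genes, with 16392, 18366, 18052 and 12323 bases.

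The other genes of the splicing machinery, a list of 91 genes of helicases, Prp19 complex proteins, Sm-like proteins and further factors, were set beside these families. They had a promoter peak in 81, 78, 67 and 56 cases. In MV4-11, 13 of 67 lost the peak (all genes 24.4%), a share below the background. There, 2 of 24 gained one (AQR and DDX46, both helicases, all genes 2.46%). The 13 included SNRNP70, the U1 protein that binds its stem loop, SF1, which binds the branch site before U2, PRPF19, a ubiquitin ligase of the activated spliceosome, BCAS2, a partner of PRPF19, DHX8, a helicase that releases the spliced mRNA, and U2SURP. The others were KHDRBS1, LSM3, LSM5, RBM17, SNRNP40, SNRNP48 and TXNL4A. In Kasumi-1, 3 of 81 lost it (LSM11, LSM6 and RBFOX2, all genes 6.79%). Bases were lower in MV4-11 sh-ANP32B in 48 of 69 of these genes (69.6%, all genes 78.1%). They were higher in Kasumi-1 sh-ANP32B in 41 of 81 (50.6%, all genes 48.9%). The median differences were -148 bases in MV4-11 and 7 in Kasumi-1 (all genes -211 and 5).

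Other families active in dividing cells were set beside the splicing factor genes. Of 85 cytosolic ribosomal protein genes, 82 had a peak in each Kasumi-1 library, 79 in MV4-11 NC and 72 after its knockdown, with median differences of 51 bases in Kasumi-1 and -227 in MV4-11. The 39 proteasome subunit genes had a peak in 32, 34, 32 and 31 cases. Their median difference was 124.5 bases in Kasumi-1 and 0 in MV4-11, where 17 of 34 had fewer bases and 16 had more. These differences between the lists were not tested, since each library gives 1 value for a gene.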

How the data were processed

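H3K27ac CUT&Tag peak lists of 4 libraries were analysed, 1 for each group. By the study's methods, the authors aligned reads to hg38 with Bowtie2 v2.2.5, removed duplicates with Picard, merged replicates with samtools v1.15.1 and called peaks by MACS2 v2.2.7 (q-value 0.01), while the submitters' processing notes name Bowtie2 2.4.4 and MACS3 3.0. The deposited lists hold the position and length in bases of each peak, and no height, q-value or other score. The smallest peak length was 357, 354, 289 and 275 bases in Kasumi-1 NC, Kasumi-1 sh-ANP32B, MV4-11 NC and MV4-11 sh-ANP32B, so the caller's minimum differed between lists.

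The members and gene lists were chosen with earlier results of these data known. Windows held 2500 bases on either side of the Ensembl canonical start in GENCODE release 44 (chromosomes 1 to 22 and X), and 1 overlapping base counted as a peak. Lost means that NC had a peak and sh-ANP32B none. More or fewer bases was counted over genes with a peak in either library, and 1.5-fold changes over genes with a peak in both. With 1 list a group, no test was made and depth was unknown. Values in every library were given for genes with a peak in some libraries, SF3B1, SRSF2 and U2AF1, the 5 largest fold decreases and increases in each line and the gene with the most bases in each family. Genes given beside these were chosen after their values were seen. Words of 50 bases were counted on both strands of the reference genome. For motifs, the RefSeq start nearest to the canonical start was used (within 100 bases for 53 of 57 genes). Overlap counting was tested on simulated peaks. Python 3.11.15, pandas 2.3.3 and pysam 0.24.0 were used. Other windows, length limits and gene subsets were tried as alternatives. The value of 1 marker gene of the list of other cells is not reported here.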

Additional observations from a re-analysis of the deposited data

Results flagged for a closer look

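The splicing factor genes had a median difference of 52 bases (sh-ANP32B minus NC) in Kasumi-1 (all genes 5) and -312 bases in MV4-11 (all genes -211). More bases in Kasumi-1 and fewer in MV4-11 were found in 33 of the 63 genes (52.4%). The share was 14.8% over all genes, 50% of which had no peak in any library. These values were singled out because the lines moved in opposite directions under the same contrast. The medians are over genes with a peak in both libraries, where the all-gene medians also differed in sign. Over genes with a peak in either library, the all-gene median was 0 in Kasumi-1 and -323 in MV4-11. In Kasumi-1, 48.9% of all genes had more bases and 49.9% fewer. With 1 library a group, that difference was not tested.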

How the results depend on the processing

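No replicate could be left out and no paired analysis was possible because each group has 1 peak list, called on merged replicates. Of 124 values from 9 alternative settings of 15 results, 107 stayed within 1.5 times the reported value and 17 moved further. A reversal of sign was defined for the median differences only, and 0 of these reversed. Counts could not be called reversed. Without the 19 genes with another protein-coding start in the window, 44 genes were left, so counts fell by construction: 36, 36, 32 and 27 had a peak in Kasumi-1 NC, Kasumi-1 sh-ANP32B, MV4-11 NC and MV4-11 sh-ANP32B, 31 had more bases in Kasumi-1 NC than in MV4-11 NC, 25 had more after the knockdown in Kasumi-1, and 27 had fewer and 5 more in MV4-11. With windows of 1000 bases to each side, 27 genes had more bases in Kasumi-1, where 12 of 55 windows were wholly covered in both libraries, and the medians were 0 in Kasumi-1 and -115 in MV4-11. With a window between these sizes the Kasumi-1 median was 21. With the 10000 longest peaks of each list, 2 genes lost (SF3B2 and SNRPF) and 2 gained a peak in Kasumi-1, 8 had fewer bases there, and 5 lost and 5 gained a peak in MV4-11, so that 37 genes had one in each MV4-11 library (47 in each Kasumi-1 library). With peaks of at least 1000 bases, 2 genes lost theirs in MV4-11 (SNRPC and SRSF3). For these 2 settings the cause was not tested. Unknown depth and differing minimum lengths limit what an absent or shorter peak shows.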
